A study of Mus musculus with 14 samples.

Results

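The genes described here are 10 members of the Nrf2 antioxidant pathway of the mouse, chosen by name: Nfe2l2, Keap1, Nqo1, Hmox1, Gclc, Gclm, Txnrd1, Srxn1, G6pdx and Gstm1. They were chosen with earlier results of these data known. All 10 were found among the 23284 genes listed in each of the expression tables, and all 10 passed the filter of at least 5 FPKM in 1 or more libraries of the table. FPKM is the fragment number of a gene divided by exon length and by a scale for the library, so it is a level per length. RNA-seq gave 14 libraries. Untransfected cells gave 8 libraries in 4 groups of 2, namely EpH4 cells, an epithelial line of the mouse mammary gland, and EpRas cells, their derivative transformed with H-Ras, each kept for 48 h without or with 1 ng/ml TGF-β3. The other 6 came from EpRas cells given the control siRNA siNC, or pair 1 or pair 2 of siRNAs against the ETS family transcription factors Etv4 and Etv5, each again without or with TGF-β for 48 h, with 1 library per condition. EpH4 cells were grown in 10% and EpRas cells in 4% fetal bovine serum, so the line, the serum and the transformation cannot be told apart in a comparison of the lines. Each line is a single line. The study calls the untransfected libraries of a group biological replicates, without saying whether they came from separate cultures, and p-values measure the spread between these libraries.

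Nrf2, the protein of Nfe2l2, is a transcription factor that Keap1 holds in the cytoplasm and hands to a Cul3 ubiquitin ligase for degradation. Oxidants and electrophiles modify cysteines of Keap1, after which newly made Nrf2 enters the nucleus, pairs with small Maf proteins and binds antioxidant response elements. The enzymes it is known to induce make glutathione and NADPH, reduce quinones and peroxides, conjugate electrophiles and break down haem. Because Nrf2 is controlled mainly through the stability of the protein, the mRNA of Nfe2l2 is not a measure of its activity, and no protein was measured in these libraries.

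The core letters of the antioxidant response element, TGACNNNGC, were searched on both strands in the RefSeq promoter windows of the GRCm38.p6 build, which run from 250 bases before to 50 bases after a transcription start. Windows were found for 8 of the 10 genes, and Hmox1 and Gclc had none. The motif was present in at least 1 window of 5 genes, Nfe2l2, Srxn1, Gclm, Txnrd1 and G6pdx, and the 11 windows of the members held it in 45.5%, against 12.4% of all 32851 windows. The matched stretches are shown with 10 bases on either side, read on the strand of the gene, with the motif in capitals. Where the capitals begin with GC, the motif lies on the opposite strand.
Nfe2l2: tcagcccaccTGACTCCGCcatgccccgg
Gclm: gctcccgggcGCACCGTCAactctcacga
Txnrd1: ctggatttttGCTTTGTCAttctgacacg
G6pdx: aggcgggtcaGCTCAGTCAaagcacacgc
Srxn1: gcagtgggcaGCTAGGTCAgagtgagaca
These stretches lie at chr2:75704885-75704913 on the minus strand for Nfe2l2, chr3:122245413-122245441 on the plus strand for Gclm, chr10:82859104-82859132 on the plus strand for Txnrd1, chrX:74428919-74428947 on the minus strand for G6pdx and chr2:152105542-152105570 on the plus strand for Srxn1. The motif began 240 bases before the start of Nfe2l2, 134 before that of Gclm, 92 before the start of 1 of the 3 Txnrd1 windows and 57 before that of G6pdx, and at base 29 of the transcript of Srxn1. In the GENCODE M21 annotation, the stretch of G6pdx and that of Srxn1 lie in exons of their own genes, that of Nfe2l2 lies in an exon of E030042O20Rik on the opposite strand, and those of Gclm and Txnrd1 lie in no exon. All 10 members are protein-coding genes there. The 5 that differed between the untreated lines lie at chr8:107388225-107403206 (Nqo1, minus strand), chrX:74409483-74429194 (G6pdx, minus), chr3:108012255-108017973 (Gstm1, minus), chr2:152105516-152111376 (Srxn1, plus) and chr8:75093621-75100589 (Hmox1, plus), and Nfe2l2 lies at chr2:75675513-75704641 (minus).

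The windows of Nqo1, Keap1 and Gstm1 did not hold these letters. The 250 bases before the start are shown for Nfe2l2, whose window held the motif (capitals), and for Nqo1, which had the greatest log2 difference of the members between untreated EpRas and EpH4 cells and whose window did not hold it. They span chr2:75704664-75704913 and chr8:107403206-107403455, both on the minus strand.
Nfe2l2: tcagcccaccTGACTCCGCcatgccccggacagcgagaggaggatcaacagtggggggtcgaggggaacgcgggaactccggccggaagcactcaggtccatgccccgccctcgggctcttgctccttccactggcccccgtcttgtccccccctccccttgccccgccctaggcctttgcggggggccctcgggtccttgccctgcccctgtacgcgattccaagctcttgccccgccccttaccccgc
Nqo1: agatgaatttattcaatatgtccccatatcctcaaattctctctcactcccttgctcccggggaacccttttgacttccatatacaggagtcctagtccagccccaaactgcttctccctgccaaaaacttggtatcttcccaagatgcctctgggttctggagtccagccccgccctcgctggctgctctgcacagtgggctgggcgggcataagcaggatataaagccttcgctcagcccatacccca
A match is a description of letters, no binding was measured at these places in the expression tables, and the genes with and without the motif are both found among those that differed between the lines.

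The deepest untransfected library had 2.23 times the relative depth of the shallowest, and the deepest siRNA library 1.74 times. These ratios were read from the steps between low FPKM values, since the tables give no read counts. The steps also gave whole reads for 8 of the 10 members in each table, all but Keap1 and Txnrd1. Of 11 epithelial markers, 10 reached 1 FPKM in both tables, the exception being Krt5. The fibroblast markers Thy1 and Lum are listed at 0, and the summed level of the 7 fibroblast markers was 222 to 247 FPKM in EpH4 cells with TGF-β, against 8.42 to 26.8 FPKM in the other untransfected libraries. Most of that sum was Col1a1, a collagen of the matrix, which reached 224 FPKM, while none of the other fibroblast markers exceeded 13.2 FPKM. The summed level of the epithelial markers was 3128 to 3447 FPKM in untreated EpH4 cells, 5052 to 5481 FPKM in treated EpH4 cells and 2338 to 3095 FPKM in untreated EpRas cells, and the EpRas libraries with TGF-β lay apart at 1758 and 3313 FPKM. Krt8 (561 to 1361 FPKM) and Krt18 (868 to 1450 FPKM) weighed heavily in these sums. Over the same libraries Epcam ranged from 64.9 to 534, Cdh1 from 18.2 to 93.7 and Krt14 from 62.2 to 851 FPKM, more widely than the sum. In the siRNA libraries the summed level of the fibroblast markers was 5.50 FPKM with siNC, 24.6 with pair 1 and 16.5 with pair 2 in untreated cells, and 11.6, 43.1 and 22.4 FPKM with TGF-β, so this sum was higher with both pairs, and that of the epithelial markers was 3088, 3442 and 3374 FPKM untreated and 3678, 4844 and 4353 FPKM with TGF-β. The part of these markers in the results was not tested. In bulk RNA a lower share of expressing cells and less RNA per cell cannot be told apart.

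**Figure D1:**
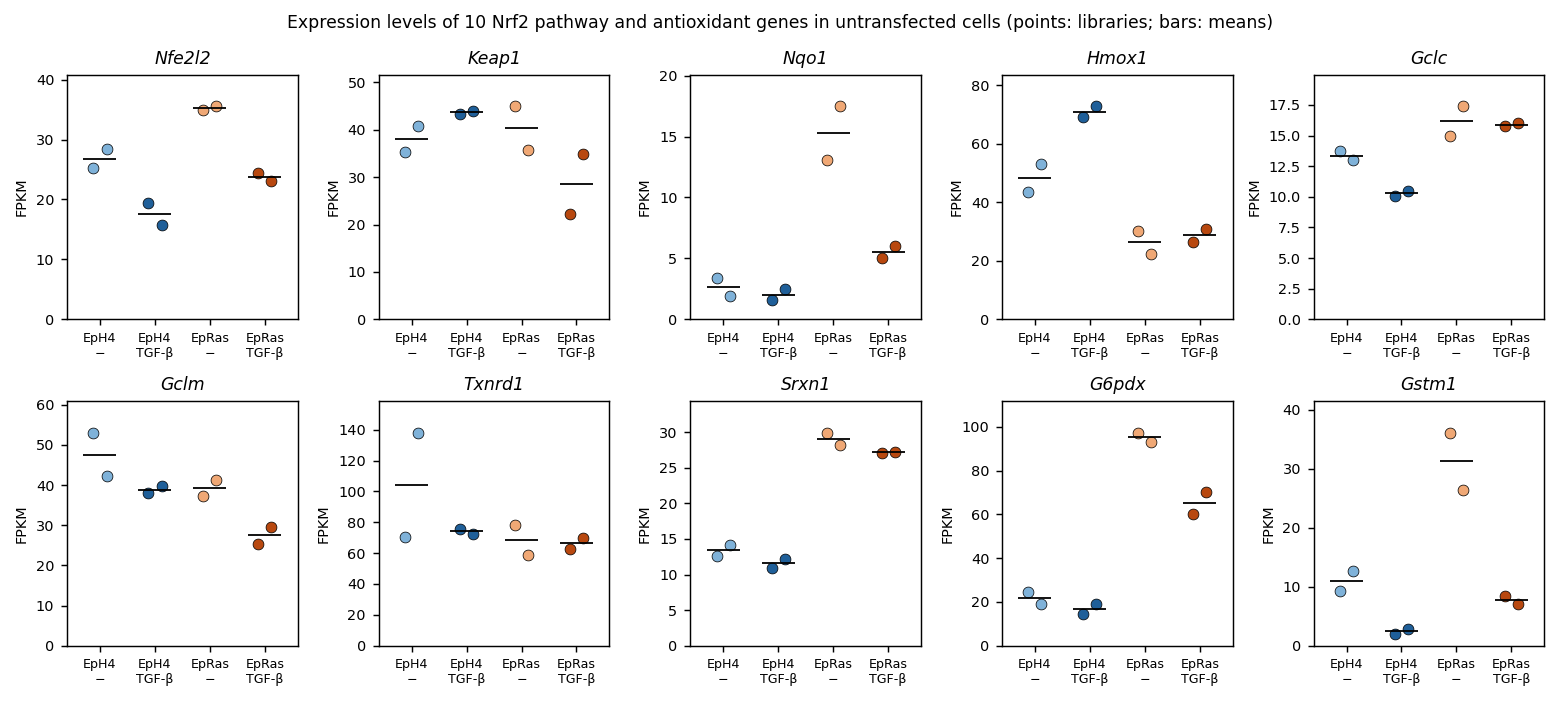
Levels of the 10 genes in FPKM (vertical axes, linear, each from 0) in the 8 untransfected libraries; points are libraries and bars are group means (n = 2). Both EpRas groups lie above both EpH4 groups for G6pdx, Nqo1 and Srxn1 and below them for Hmox1, and Gstm1 is lower with TGF-β in both lines.

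The comparison of the untreated lines asked how the antioxidant genes differed between the transformed and the parental cells. In EpRas cells, Nqo1, G6pdx, Gstm1 and Srxn1 were higher and Hmox1 was lower by limma on log2(FPKM + 1), with Benjamini-Hochberg adjustment over all 9100 genes tested. That is 5 of 10 members, 4 higher and 1 lower, beside 17.6% of all genes tested (8.45% higher and 9.11% lower). The libraries of the lines did not overlap for 6 members that were higher and 2 that were lower in EpRas cells, where 61% of all genes did not overlap (30.6% higher and 30.4% lower). The median log2 difference of the members was 0.32 and that of all genes tested was -0.0031.

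Nqo1 encodes the NADPH-dependent quinone reductase that is widely used as a readout of Nrf2. Its level was 3.40 and 1.95 FPKM in untreated EpH4 cells and 13.0 and 17.5 FPKM in untreated EpRas cells, from 27, 21, 63 and 157 reads. Both EpRas libraries lay well above both EpH4 libraries, at a log2 difference of 2.16 (SE 0.26, adjusted p = 0.00188, limma). Over the limma alternatives this difference ranged from 1.40 to 2.50 and that of G6pdx from 1.91 to 2.26, so which was greater depended on the setting.

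G6pdx encodes glucose-6-phosphate dehydrogenase, which makes NADPH in the pentose phosphate pathway. It stood at 24.5 and 19.1 FPKM in EpH4 cells and at 97.3 and 93.1 FPKM in EpRas cells. The groups were far apart compared with the gap between replicates, with a log2 difference of 2.09 (SE 0.20, adjusted p = 0.000589, limma). In the authors' table the gene spans chrX:74393291-74453778, which is wider than the annotated gene at chrX:74409483-74429194. That span is shared with Ikbkg, a gene on the opposite strand that contains G6pdx. The libraries are directional, but whether the counting used the strand is not given in the sources used here, so the level of G6pdx may include reads of Ikbkg.

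Gstm1, a glutathione S-transferase that joins glutathione to electrophiles, was 9.19 and 12.6 FPKM in EpH4 cells and 36.1 and 26.4 FPKM in EpRas cells. Both EpRas libraries were above both EpH4 libraries, by 1.43 on the log2 scale (SE 0.24, adjusted p = 0.00725, limma). Gstm1 has close paralogs, of which Gstm2 and Gstm5 passed the filter, and reads that fit several of them make its level less certain.

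Srxn1, sulfiredoxin, repairs peroxiredoxins whose active cysteine has been overoxidized. Its level was 12.7 and 14.1 FPKM in EpH4 cells and 29.9 and 28.1 FPKM in EpRas cells, and the replicates lay close together in both lines. The log2 difference was 1.06 (SE 0.15, adjusted p = 0.00332, limma).

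Hmox1, haem oxygenase 1, which opens haem into biliverdin, iron and carbon monoxide, went the other way. It was 43.5 and 53.2 FPKM in EpH4 cells and 30.3 and 22.3 FPKM in EpRas cells. The groups did not overlap, but the gap between them was close to the gap between replicates. The log2 difference was -0.86 (SE 0.20, adjusted p = 0.0254, limma). This call was lost on leaving out EpH4 untreated replicate 1 (adjusted p = 0.0547) or 2 (0.133), EpRas untreated replicate 2 (0.129), or EpH4 TGF-β replicate 1 (0.0597) or 2 (0.0593), the last 2 of which enter only through the shared estimate of the spread. It was also lost with the replicate block (0.0534) and with a fit of only the groups compared (0.0542), and the call of Gstm1 was lost without EpRas untreated replicate 1 (0.0544).

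The other 5 members did not pass the test. Nfe2l2 itself was 25.2 and 28.4 FPKM in EpH4 cells and 34.9 and 35.5 FPKM in EpRas cells, with a log2 difference of 0.38 (95% interval 0.01 to 0.76, adjusted p = 0.147, limma). Its replicates lay close and its groups did not overlap, and the Tukey-Kramer test on unlogged FPKM did call it (adjusted p = 0.031). Keap1, the sensor and adaptor that keeps Nrf2 low, was 35.3 and 40.8 FPKM in EpH4 cells and 44.9 and 35.7 FPKM in EpRas cells, with overlapping groups and a log2 difference of 0.07 (95% interval -0.47 to 0.62, adjusted p = 0.862, limma).

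Gclc and Gclm encode the catalytic and the modifier subunit of glutamate-cysteine ligase, the rate-limiting enzyme of glutathione synthesis. Gclc was 13.7 and 13.0 FPKM in EpH4 cells and 14.99 and 17.4 FPKM in EpRas cells (log2 difference 0.26, adjusted p = 0.27, limma). Gclm was 53.0 and 42.2 FPKM in EpH4 cells and 37.2 and 41.3 FPKM in EpRas cells (log2 difference -0.26, adjusted p = 0.34, limma). The groups did not overlap for either subunit, and the values of the subunits pointed in opposite directions without passing the test.

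Txnrd1, the cytosolic thioredoxin reductase, was 70.8 and 138 FPKM in EpH4 cells and 78.0 and 58.6 FPKM in EpRas cells. EpH4 untreated replicate 2 was the highest of the 8 libraries and lay apart from the other 7. The log2 difference was -0.54 (95% interval -1.26 to 0.17, adjusted p = 0.267, limma). Without EpH4 untreated replicate 1, which leaves that high library alone in its group, it was -1.02 (adjusted p = 0.0453), and without replicate 2 it was -0.06.

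**Figure D2:**
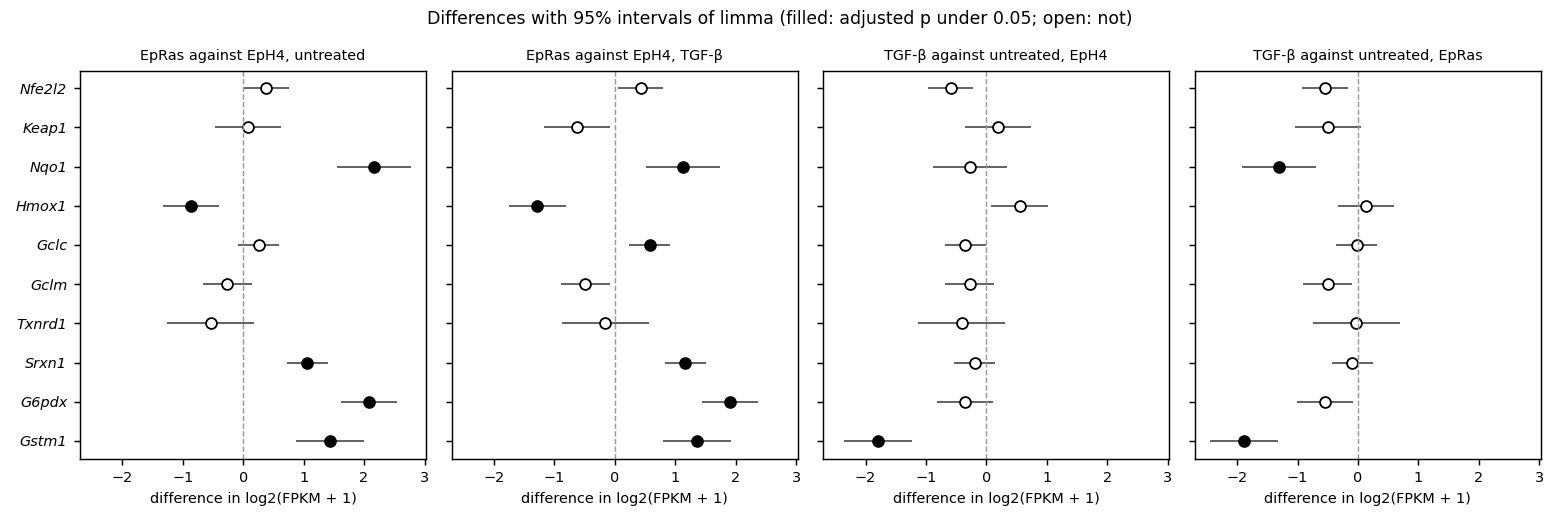
Differences in log2(FPKM + 1) of the 10 genes (horizontal axes) in 4 comparisons of the untransfected groups, with the 95% interval of limma as lines; filled points have an adjusted p under 0.05. G6pdx, Nqo1, Gstm1 and Srxn1 are filled to the right and Hmox1 to the left in both comparisons of the lines, and only Gstm1 is filled in both comparisons of TGF-β with no treatment.

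With TGF-β, 6 of 10 members differed between the lines, 5 higher and 1 lower in EpRas cells, beside 21.3% of all genes tested (8.92% higher and 12.3% lower). The libraries did not overlap for all 10 members, 6 higher and 4 lower, beside 63% of all genes (30.2% higher and 32.7% lower). The treated groups are other libraries than the untreated ones, but the fit shares its estimate of the spread between both comparisons.

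G6pdx was 14.6 and 19.2 FPKM in treated EpH4 cells and 60.2 and 70.4 FPKM in treated EpRas cells, a log2 difference of 1.90 (SE 0.20, adjusted p = 0.000643, limma). Srxn1 was 10.9 and 12.3 FPKM against 27.1 and 27.2 FPKM, a log2 difference of 1.16 (SE 0.15, adjusted p = 0.00158, limma). The lines were again more than 2-fold apart for both genes.

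Gstm1 was low in treated EpH4 cells, at 1.94 and 2.90 FPKM from 9 and 20 reads, and was 8.35 and 7.01 FPKM in treated EpRas cells. The log2 difference was 1.35 (SE 0.24, adjusted p = 0.007, limma). Nqo1 was 1.57 and 2.47 FPKM in EpH4 cells from 9 and 21 reads, and 5.00 and 6.05 FPKM in EpRas cells. Its log2 difference was 1.12 (SE 0.26, adjusted p = 0.0212, limma). Both genes were higher in EpRas cells by limma, at levels below those of the untreated EpRas cells. The Tukey-Kramer test on unlogged FPKM called neither (adjusted p = 0.31 for Nqo1 and 0.545 for Gstm1). The study names that test for multiple comparisons, and used Cuffdiff for differential expression in its RNA-seq.

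Hmox1 was 69.0 and 72.7 FPKM in treated EpH4 cells and 26.3 and 31.0 FPKM in treated EpRas cells. The lines were further apart than their replicates, and the log2 difference was -1.28 (SE 0.20, adjusted p = 0.00416, limma). Gclc was 10.1 and 10.5 FPKM in EpH4 cells and 15.7 and 16.0 FPKM in EpRas cells, a log2 difference of 0.58 (SE 0.14, adjusted p = 0.0279, limma).

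The remaining 4 members did not pass the test. Nfe2l2 was 19.4 and 15.7 FPKM against 24.4 and 23.1 FPKM (log2 difference 0.43, adjusted p = 0.102, limma). Gclm was 37.9 and 39.8 FPKM against 25.3 and 29.6 FPKM (-0.49, adjusted p = 0.087, limma). Keap1 was 43.4 and 44.0 FPKM against 22.3 and 34.9 FPKM (-0.63, adjusted p = 0.0977, limma). Txnrd1 was close in both, at 75.7 and 72.4 FPKM against 62.9 and 70.0 FPKM (-0.16, adjusted p = 0.748, limma). Of these, EpRas cells had the higher values only for Nfe2l2.

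Leaving out EpH4 TGF-β replicate 1 left 3 of the 6 calls, with Gclc (adjusted p = 0.171, limma), Nqo1 (0.153) and Gstm1 (0.0675) lost. The call of Gclc was also lost without EpH4 TGF-β replicate 2 (0.135) or EpRas TGF-β replicate 1 (0.058), with the replicate block (0.0629) and with a fit of only the groups compared (0.0717), and that of Nqo1 without EpH4 TGF-β replicate 2 (0.0512) or EpRas TGF-β replicate 2 (0.0749), the last of which gave a call for Keap1 (0.0219).

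Treatment of EpH4 cells with TGF-β lowered Gstm1, the only 1 of the 10 members called by limma, beside 9.4% of all genes tested (6.48% higher and 2.91% lower). The groups did not overlap for 2 members that were higher and 5 that were lower, beside 60.6% of all genes (30.2% higher and 30.4% lower). These comparisons of TGF-β with no treatment use the same untreated libraries as the comparison of the untreated lines. The median log2 difference of the members was -0.31 and that of all genes was -0.02.

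Gstm1 fell from 9.19 and 12.6 FPKM to 1.94 and 2.90 FPKM. Both treated libraries were far below both untreated ones. The log2 difference was -1.80 (SE 0.24, adjusted p = 0.00445, limma), and without EpH4 TGF-β replicate 1 the call was lost (adjusted p = 0.053). The Tukey-Kramer test on unlogged FPKM did not call Gstm1 here (adjusted p = 0.238) and called Nfe2l2 (0.0221) and Hmox1 (0.0341) in its place. Nfe2l2 was 25.2 and 28.4 FPKM without and 19.4 and 15.7 FPKM with TGF-β, without overlap, and its log2 difference of -0.59 (95% interval -0.97 to -0.22) did not pass the test (adjusted p = 0.0642, limma). Hmox1 was 43.5 and 53.2 FPKM without and 69.0 and 72.7 FPKM with TGF-β, also without overlap, at a log2 difference of 0.55 (95% interval 0.08 to 1.02, adjusted p = 0.147, limma). The remaining 7 members had log2 differences between -0.41 for Txnrd1 and 0.20 for Keap1, with adjusted p between 0.199 and 0.663.

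In EpRas cells TGF-β lowered 2 of the 10 members, Gstm1 and Nqo1, beside 3.82% of all genes tested (1.9% higher and 1.92% lower). The groups did not overlap for 7 members, all lower with TGF-β, beside 39.4% of all genes (18.5% higher and 20.9% lower). The median log2 difference of the members was -0.50 and that of all genes was -0.02.

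Gstm1 fell from 36.1 and 26.4 FPKM to 8.35 and 7.01 FPKM, a log2 difference of -1.88 (SE 0.24, adjusted p = 0.00622, limma). Both treated libraries were far below the lower untreated library. Nqo1 fell from 13.0 and 17.5 FPKM to 5.00 and 6.05 FPKM, a log2 difference of -1.31 (SE 0.26, adjusted p = 0.0394, limma). The groups of Nqo1 were clearly apart, but its call was close to the threshold. It was lost on leaving out any of the 4 EpRas libraries or either of the EpH4 TGF-β libraries (adjusted p between 0.0764 and 0.208), and with the replicate block (0.0806), while the call of Gstm1 was lost without EpRas untreated replicate 1 (0.0584).

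Of the members that did not pass in EpRas cells, Nfe2l2 went from 34.9 and 35.5 FPKM to 24.4 and 23.1 FPKM (log2 difference -0.55, 95% interval -0.92 to -0.17, adjusted p = 0.137, limma). G6pdx went from 97.3 and 93.1 FPKM to 60.2 and 70.4 FPKM (-0.54, 95% interval -1.005 to -0.08, adjusted p = 0.241, limma). Gclm went from 37.2 and 41.3 FPKM to 25.3 and 29.6 FPKM (-0.50, 95% interval -0.91 to -0.10, adjusted p = 0.21, limma). All 3 had lower values in both treated libraries than in either untreated library. Keap1 had a log2 difference of -0.50 (adjusted p = 0.361, limma). Hmox1 (0.13), Gclc (-0.02), Txnrd1 (-0.03) and Srxn1 (-0.09) lay closer to 0, with 95% intervals that reached from -0.34 to 0.60, -0.36 to 0.32, -0.74 to 0.69 and -0.44 to 0.25.

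The difference between the responses of the lines was tested as the interaction of line and TGF-β. None of the 10 members was called, beside 0.802% of all genes tested (0.176% higher and 0.626% lower, limma). At an unadjusted p under 0.05 there was 1 member of 10, Nqo1, beside 10.9% of all genes, which is close to the same share. Nqo1 had a log2 value of -1.04 (95% interval -1.90 to -0.17, unadjusted p = 0.0247, adjusted p = 0.362, limma). For Gstm1 the difference was -0.08 (95% interval -0.88 to 0.71), a width that leaves room for sizeable differences with 2 libraries per group. That Nqo1 was called in EpRas cells and not in EpH4 cells is thus not shown to be a difference between the lines.

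Besides the members, 76 other genes of the pathway were listed in 7 classes, of which 55 passed the filter in the untransfected libraries. In untreated EpRas cells 9 were higher and 3 lower than in EpH4 cells, beside the 8.45% and 9.11% of all genes tested. The higher ones included Blvrb, biliverdin reductase B (log2 difference 2.11, adjusted p = 0.00105), Sod3, the extracellular superoxide dismutase (1.88, 0.00652), Gsta4, a glutathione S-transferase for lipid aldehydes (1.58, 0.00961), and Idh1, the cytosolic NADPH-making isocitrate dehydrogenase (1.26, 0.00371). The lower ones were Mgst1, a microsomal glutathione S-transferase (-2.43, 0.00025), Glrx, glutaredoxin (-0.89, 0.0234), and Me1, the NADPH-making malic enzyme (-0.70, 0.0236), all by limma. Blvrb rose from 15.1 and 19.5 FPKM to 86.3 and 69.7 FPKM, and Mgst1 fell from 43.2 and 32.3 FPKM to 6.78 and 5.47 FPKM. Among the 5 NADPH genes 2 were higher and 1 lower, among the 15 detoxification and export genes 2 were higher and 1 lower, and none of the 7 thioredoxin and peroxiredoxin genes was called. The calls of Blvrb, Idh1 and Mgst1 held in every limma alternative, and those of the other named genes were lost in at least 1.

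With TGF-β, 10 of these 55 were higher and 4 lower in EpRas cells, beside 8.92% and 12.3% of all genes. Blvrb (2.06, adjusted p = 0.0008), Chac1, which degrades glutathione (1.46, 0.00197), Prdx6, a peroxiredoxin (1.26, 0.009), and Txn2, the mitochondrial thioredoxin (1.08, 0.00241), were the higher ones with the greatest log2 differences. Mgst1 (-1.76, 0.00078), Gstm2 (-1.46, 0.00547), Ephx1, the microsomal epoxide hydrolase (-0.80, 0.0118), and Glrx (-0.74, 0.0388) were lower, all by limma. Of the 7 thioredoxin and peroxiredoxin genes, 3 were higher. The calls of Glrx, Ephx1 and Prdx6 were lost in at least 1 limma alternative, with adjusted p of up to 0.2, 0.0995 and 0.0723.

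TGF-β lowered 4 of the 55 in EpH4 cells and raised none, beside 2.91% of all genes lower and 6.48% higher. Aldh3a1, an aldehyde dehydrogenase, was 4.77 and 4.75 FPKM without TGF-β and is listed at 0 in both libraries with TGF-β (adjusted p = 0.000217, limma). Gsta4 went from 13.7 and 14.3 FPKM to 2.81 and 4.19 FPKM (log2 difference -1.75, adjusted p = 0.0102), and Ephx1 from 72.2 and 68.4 FPKM to 24.7 and 27.1 FPKM (-1.41, 0.002). Fth1, the ferritin heavy chain, went from 2423 and 2540 FPKM to 1289 and 1523 FPKM (-0.82, 0.0168), all by limma. The calls of Gsta4 and Fth1 were lost in at least 1 limma alternative (adjusted p of up to 0.0994 and 0.231), and those of Aldh3a1 and Ephx1 held in all.

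In EpRas cells TGF-β raised 1 of the 55 and lowered 3, beside 1.9% and 1.92% of all genes. The higher one was Prdx5, a peroxiredoxin of mitochondria and peroxisomes, which went from 290 and 267 FPKM to 467 and 597 FPKM (log2 difference 0.92, adjusted p = 0.0456). Ephx1 went from 65.9 and 68.8 FPKM to 16.1 and 12.9 FPKM (-2.15, 0.000751), and Gsta4 from 43.2 and 44.3 FPKM to 8.65 and 4.39 FPKM (-2.63, 0.00326). Aldh3a1 went from 9.51 and 7.33 FPKM to 0.142 FPKM in replicate 1, and is listed at 0 in replicate 2 (adjusted p = 0.000231), all by limma. The call of Prdx5 was lost in at least 1 limma alternative (adjusted p of up to 0.215). The interaction called none of the 55, by limma.

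The siRNA libraries asked what followed in EpRas cells when Etv4 and Etv5 were depleted. Etv4 was 57.4 FPKM with siNC, 11.6 with pair 1 and 27.9 with pair 2 in untreated cells, and 64.3, 12.6 and 18.9 FPKM with TGF-β. Etv5 was 8.85, 1.61 and 1.26 FPKM untreated, and 5.34, 1.24 and 1.203 FPKM with TGF-β. Both targets were lower than siNC in all 4 libraries, and pair 2 left more Etv4 than pair 1. Each condition has 1 library, so no p-value is given. A gene was called where both pairs differed from siNC at least 1.5-fold in the same direction on log2(FPKM + 1), and both pairs share the same siNC library.

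**Figure D3:**
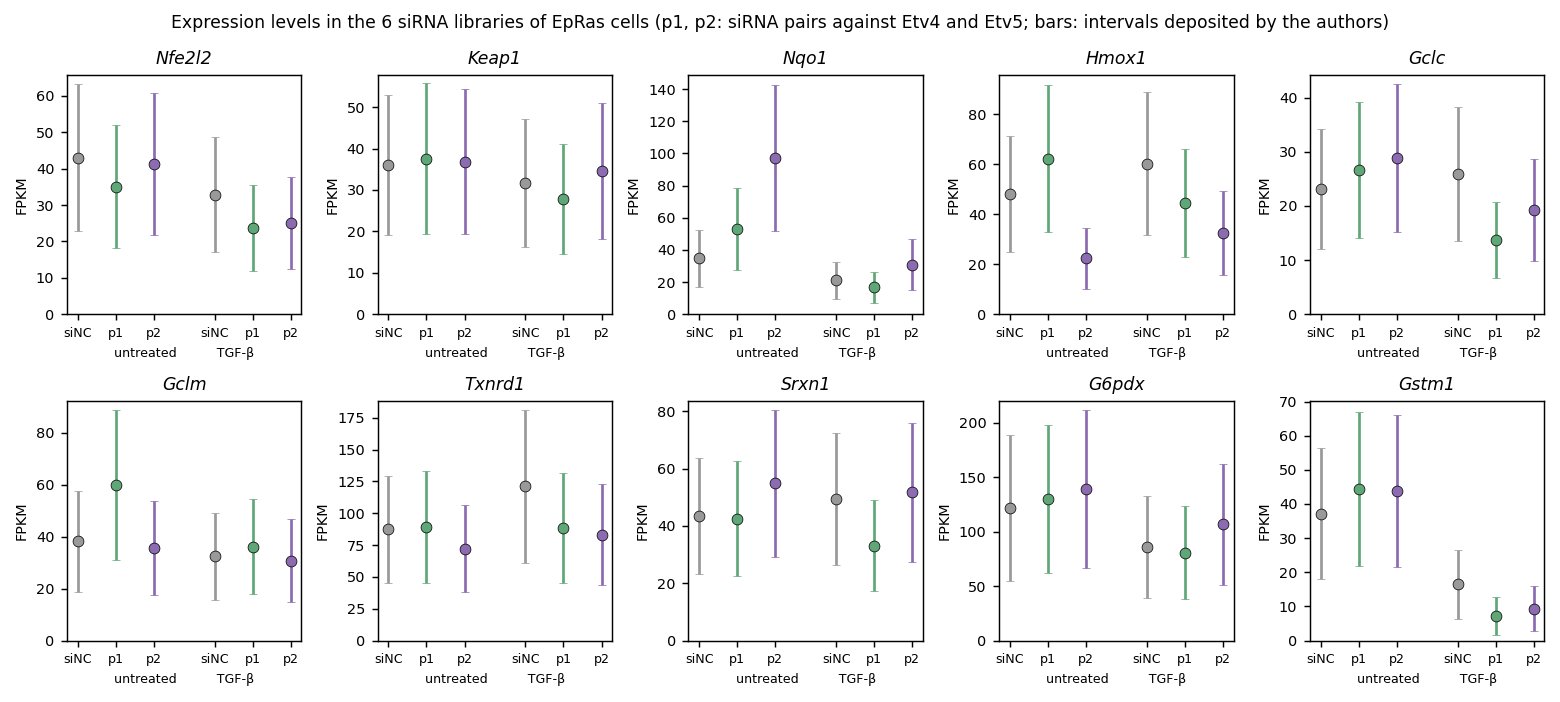
Levels of the 10 genes in FPKM (vertical axes, linear, each from 0) in the 6 siRNA libraries of EpRas cells, untreated at left and with TGF-β at right; p1 and p2 are the siRNA pairs, and bars are the intervals deposited by the authors, not a replicate error. Nqo1 is highest in the untreated libraries of the pairs, and Gstm1 is lowest in the treated ones.

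In untreated cells 1 of the 10 members, Nqo1, was past the fold, and it was higher, beside 14.2% of all 9094 genes (6.74% higher and 7.41% lower). Nqo1 was 34.7 FPKM with siNC, 52.8 with pair 1 and 97.0 with pair 2, from 348, 719 and 1238 reads. The ratio to siNC was 1.52 with pair 1 (95% counting interval 1.34 to 1.73) and 2.80 with pair 2 (2.48 to 3.16). These intervals are exact Clopper-Pearson ones on recovered reads and cover counting error only. Pair 1 was barely past the fold.

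Hmox1 was 48.1 FPKM with siNC, 62.2 with pair 1 and 22.3 with pair 2, so the pairs went in opposite directions. Gclm was 38.2, 59.8 and 35.5 FPKM, higher with pair 1 only. Nfe2l2 (43.0, 35.0 and 41.3 FPKM) and Keap1 (36.0, 37.6 and 36.9 FPKM) stayed within 1.5-fold of siNC with both pairs. So did G6pdx (121, 130 and 139 FPKM), Srxn1 (43.3, 42.6 and 54.9 FPKM), Txnrd1 (87.2, 89.4 and 72.1 FPKM), Gclc (23.1, 26.6 and 28.8 FPKM) and Gstm1 (37.1, 44.4 and 43.8 FPKM).

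With TGF-β, 1 of the 10 members, Gstm1, was past the fold, and it was lower, beside 12.5% of all genes (5.65% higher and 6.87% lower). Gstm1 was 16.5 FPKM with siNC, 7.24 with pair 1 and 9.37 with pair 2, from 233, 81 and 94 reads. The ratio to siNC was 0.439 (95% counting interval 0.336 to 0.567) with pair 1 and 0.568 (0.442 to 0.724) with pair 2. Nqo1 was 21.1, 16.7 and 30.8 FPKM in the same libraries, lower than siNC with pair 1 and higher with pair 2. Untransfected EpRas cells with TGF-β, normalized separately, had 8.35 and 7.01 FPKM of Gstm1. The siNC library was above both of these values and the pairs lay nearer to them, which was not tested.

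Gclc was 25.9 FPKM with siNC, 13.7 with pair 1 and 19.2 with pair 2, and Hmox1 was 60.2, 44.5 and 32.6 FPKM. Each was below siNC with both pairs but past the fold with 1 pair only, pair 1 for Gclc and pair 2 for Hmox1. Nfe2l2 (32.9, 23.6 and 25.1 FPKM) and Txnrd1 (121, 88.7 and 83.3 FPKM) were lower with both pairs by less than the fold. Srxn1 (49.5, 33.0 and 51.7 FPKM), Gclm (32.5, 36.1 and 30.7 FPKM), Keap1 (31.7, 27.8 and 34.7 FPKM) and G6pdx (86.2, 80.4 and 107 FPKM) had values on both sides of siNC.

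The response to TGF-β within each siRNA condition was called where all 3 conditions changed at least 1.5-fold in the same direction. Nqo1 and Gstm1 were lower in all 3, 2 of 10 members beside 5.14% of all genes (3.14% higher and 1.99% lower). The ratio of Nqo1 with TGF-β to that without was 0.609 with siNC, 0.316 with pair 1 and 0.317 with pair 2. The ratio of Gstm1 was 0.445, 0.163 and 0.214. Both genes were lower with TGF-β in each of these 3 conditions, and the ratios of the pairs were below that of siNC, a difference for which 1 library per condition allows no test. These libraries were processed apart from the untransfected ones, so no test was made between them. In untransfected EpRas cells the mean went from 31.2 to 7.68 FPKM with TGF-β for Gstm1 and from 15.3 to 5.52 FPKM for Nqo1. Both were larger proportional falls than those with siNC.

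**Figure D4:**
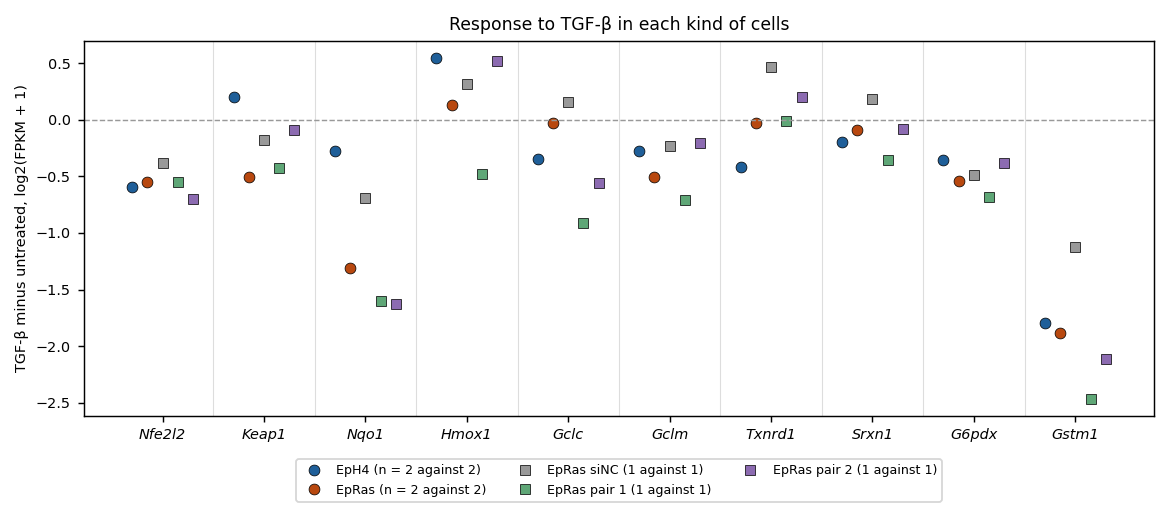
Difference in log2(FPKM + 1) between TGF-β and no treatment for the 10 genes (horizontal axis) in 5 settings; circles are untransfected lines (n = 2 per group) and squares are single siRNA libraries of EpRas cells. Gstm1 lies below -1 in all 5 settings, and Nqo1 lies from -0.27 in EpH4 cells to -1.62 with pair 2.

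Nfe2l2 was lower with TGF-β in each of these siRNA conditions too, by 0.38, 0.55 and 0.70 on the log2 scale for siNC, pair 1 and pair 2, without reaching the fold in all 3. G6pdx was lower by 0.49, 0.68 and 0.38. Hmox1 differed by 0.32, -0.48 and 0.52, and Txnrd1 by 0.47, -0.01 and 0.20, with values on both sides of 0.

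Among the other pathway genes, 58 of the 76 passed the filter in the siRNA table. In untreated cells none was higher and 13 were lower with both pairs, and with TGF-β none was higher and 18 were lower, beside the 7.41% and 6.87% of all genes that were lower. Of these, 7 and 11 belonged to the 17 detoxification and export genes, whose median log2 ratio was -0.69 untreated and -1.003 with TGF-β, beside 0.01 and 0.03 for all genes. Of the members, Nqo1 was higher and none was lower in the untreated libraries, and whether the lists differ was not tested.

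In untreated cells Mgst2, a microsomal glutathione S-transferase, was 92.0 FPKM with siNC, 12.3 with pair 1 and 12.8 with pair 2. Blvrb was 379, 58.8 and 147 FPKM, and Glrx was 35.3, 6.78 and 14.9 FPKM. All 3 were lower with both pairs, and Blvrb and Glrx were lowest with pair 1. With TGF-β, Gsta4 was 108 FPKM with siNC, 9.29 with pair 1 and 28.5 with pair 2, and Mgst2 was 52.9, 6.30 and 19.7 FPKM. Aldh3a1 was 6.95, 0.28 and 1.09 FPKM. Gsta4 and Aldh3a1 were not past the fold with both pairs in the untreated libraries, where Gsta4 was 150, 57.8 and 170 FPKM and Aldh3a1 49.1, 60.7 and 51.3 FPKM. All these differences rest on the single siNC library of each treatment. In the separately normalized table of untransfected EpRas cells, Blvrb was 86.3 and 69.7 FPKM, Mgst2 33.2 and 9.30 FPKM and Glrx 13.7 and 14.8 FPKM untreated, and with TGF-β Gsta4 was 8.65 and 4.39 FPKM and Aldh3a1 was 0.142 FPKM and listed at 0. The siNC libraries were above the untransfected ones for these 5 genes, and the tables allow no test of that. The same held for the members Gstm1 with TGF-β and Nqo1 in untreated cells.

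**Figure D5:**
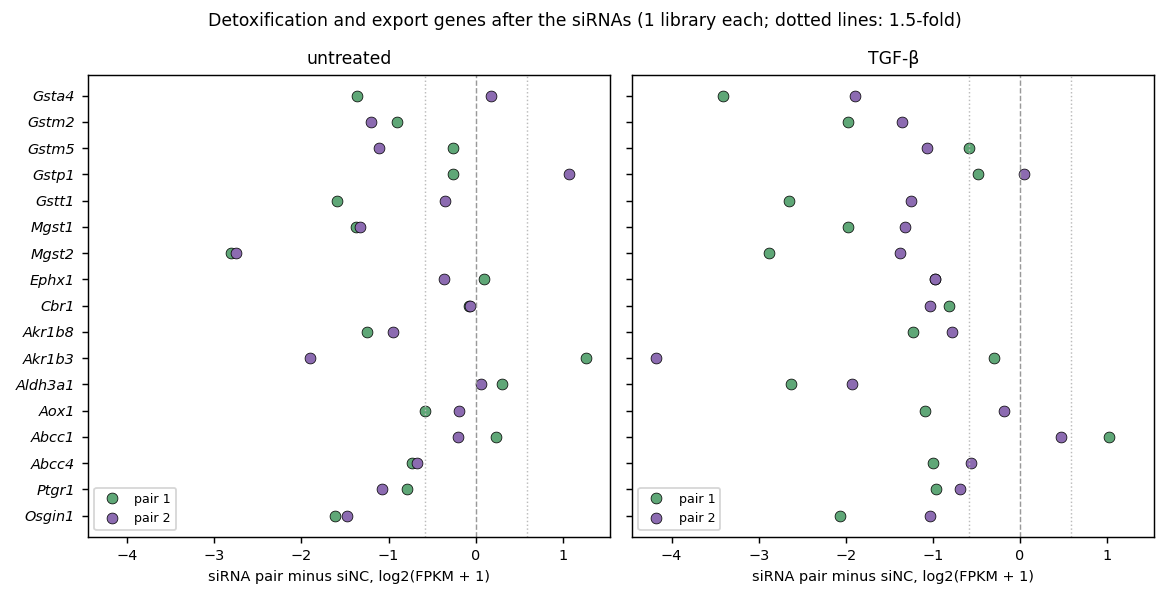
Difference in log2(FPKM + 1) from siNC (horizontal axes) of the 17 detoxification and export genes that passed the filter, for siRNA pair 1 and pair 2 against Etv4 and Etv5, with 1 library each; dotted lines mark 1.5-fold. With both pairs past the line at left lie 7 genes in untreated cells and 11 with TGF-β, and none lies past the line at right with both.

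Within the siRNA conditions, Ephx1, Aldh3a1 and Fth1 were lower and Ftl1, the ferritin light chain, was higher with TGF-β in all 3, and no other of the 58 genes was past the fold in all 3, beside 1.99% of all genes lower and 3.14% higher. The log2 differences were -1.22, -2.29 and -1.83 for Ephx1 and -2.66, -5.59 and -4.64 for Aldh3a1 with siNC, pair 1 and pair 2. Fth1 (-0.70, -1.53 and -0.65) and Ftl1 (0.95, 1.27 and 1.095) encode subunits of the same iron store and went in opposite directions.

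The genes whose log2 levels were most like those of Nqo1 over the 8 untransfected libraries were Kctd2 (Pearson r = 0.982), Bnip3l, Nptx1, Fam129a and Adra1d (0.973). Those most like Hmox1 were Hs6st1 (0.998), Mical3, Eng, Pdzrn3 and Slc12a7 (0.987). The 8 libraries fall into 4 groups, so these values describe a shared order of groups, and they were picked as the highest of all genes tested.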

How the data were processed

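RNA-seq of 14 libraries was analysed. Per the labels and the methods of the study, poly(A) RNA was sequenced directionally on the Ion Proton, reads were aligned to mm10, and genes were quantified with Cuffdiff. The submitters' processing notes name TopHat2 2.0.11, Bowtie2 2.2.2.2 and Cufflinks 2.2.0. The values deposited by the authors are FPKM, in 2 tables that came from separate runs and were never tested against each other. FPKM divides by length and by a scale for the library. Median-of-ratios factors computed from the FPKM were 0.993 to 1.014 in the untransfected and 1.002 to 1.009 in the siRNA libraries. The values thus behaved as already scaled by the median of ratios, and the alternative with that scaling could change little. Genes that Cuffdiff did not mark OK, 3 of the untransfected and 2 of the siRNA table, were left out.

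Genes reaching 5 FPKM in at least 1 library were tested (9100 and 9094). The tests were made by limma 3.58.1 (R 4.3.3) on log2(FPKM + 1), with all 4 untransfected groups in 1 fit and no block, with Benjamini-Hochberg adjustment over all genes tested and a threshold of 0.05. A fold change on this scale understates the change of low genes. The siRNA libraries were compared by ratio, with 1.5-fold required in every pair of libraries. Reads were recovered where FPKM values were whole multiples of a step within 0.02, and give 95% exact intervals of ratios. Promoter windows come from RefSeq (GRCm38.p6) and gene positions from GENCODE M21.

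The genes, the list of other pathway genes and the markers were chosen with earlier results of these data known. Named genes are the 10 members, up to 4 higher and 4 lower called pathway genes per tested comparison and up to 3 each per siRNA comparison, by size of the log2 difference, the targets of the siRNAs, and the 5 genes most like Nqo1 and Hmox1. The further pathway gene Ftl1 was named because the count it belongs to was small. The limma script was tested on simulated data. Alternatives were other pseudocounts, filters, scalings and tests, a replicate block, and leaving out each library. Python 3.11.15, pandas 2.3.3, SciPy 1.17.1 and Matplotlib 3.10.9 were used.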

Additional observations from a re-analysis of the deposited data

Results flagged for a closer look

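The values of Keap1 lay in opposite directions with TGF-β in the lines, without overlap in either. Both EpH4 libraries with TGF-β (43.4 and 44.0 FPKM) were above both untreated ones (35.3 and 40.8 FPKM), while both EpRas libraries with TGF-β (22.3 and 34.9 FPKM) were below both untreated ones (44.9 and 35.7 FPKM). The interaction on the log2 scale was -0.702 (adjusted p = 0.501, limma), so this difference did not pass the test. Over all genes tested, the treated and untreated groups did not overlap for 60.6% in EpH4 cells and 39.4% in EpRas cells. The EpRas libraries with TGF-β differed from each other by more than the untreated and treated EpH4 groups did.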

How the results depend on the processing

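In the comparison of the untreated lines the number of members called stayed within 1.5 times 5 under every alternative, with Nfe2l2 added by the Tukey-Kramer test. With TGF-β it was 6, and 3 to 6 on leaving out 1 library, and the Tukey-Kramer test lost Nqo1 and Gstm1. For TGF-β in EpH4 cells it was 1, and 2 with no filter on low values, 2 with the Tukey-Kramer test on FPKM (Nfe2l2 and Hmox1, with Gstm1 lost), and 0 to 1 on leaving out 1 library. For TGF-β in EpRas cells it was 2, and 1 with a pseudocount of 0.1 FPKM, 1 with no filter, 1 with a mean of at least 10 FPKM, 1 with only the groups compared, 4 with the Tukey-Kramer test (Nfe2l2 and G6pdx added), and 0 to 2 on leaving out 1 library. With the replicate number as a block 1 member was called there in place of 2. The labels give groups the same replicate numbers, and the deviations of same-numbered libraries correlated at -0.347 to 0.0785. With 1 replicate difference per group, these correlations cannot settle whether equal numbers mark a shared batch. For the siRNA pairs, 1 member each way became 0 with a pseudocount of 5 FPKM and 0 with 2-fold for a call, both untreated and with TGF-β, and the response to TGF-β in the siRNA libraries went from 2 to 1 with 2-fold. The causes were not tested.

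Values of members that were not called changed sign on leaving out 1 library. Keap1 between the untreated lines ranged from -0.089 to 0.24. With TGF-β in EpH4 cells Nqo1 ranged from -0.56 to 0.016 and Txnrd1 from -0.89 to 0.064. In EpRas cells Txnrd1 ranged from -0.23 to 0.18, Gclc from -0.12 to 0.077 and Hmox1 from -0.083 to 0.34. For the interaction, Gstm1 ranged from -0.30 to 0.14 (0.14 with a pseudocount of 0.1 FPKM), Nfe2l2 from -0.10 to 0.19 and Txnrd1 from -0.092 to 0.86. No called value changed sign. With 2 libraries per group and 9 to 30 reads in some libraries for Nqo1 and Gstm1, small differences were not detectable.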
